A study of Caenorhabditis elegans with 12 samples.

Results

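The polo-like kinase genes of Caenorhabditis elegans described here are plk-1 (C14B9.4), plk-2 (Y71F9B.7) and plk-3 (F55G1.8), which are 3 of the 27904 genes in the deposited count table. They were taken by sequence name and chosen by measured RNA levels, namely the low level of plk-3 in the double mutant, so levels and differences that involve the double mutant are given for these genes as a description with no test. All 3 were among the 14260 genes that passed a filter on low counts. RNA came from early embryos, which the labels place between the 1-cell and the 300-cell stage, of worms grown at 20 °C and collected 60 to 65 h after synchronization as L1 larvae, with the time set for each strain. The mutant groups were the single mutants met-2(n4256) and set-25(n5021), besides the double mutant met-2(n4256); set-25(n5021). N2 (Bristol) served as wild type. Each genotype had 3 libraries, called a, b and c after the table's columns, 12 in all. The labels name 2 biological replicates, so some libraries may be technical repeats, and p-values measure only the spread between these libraries. MET-2 and SET-25 are histone methyltransferases that act on lysine 9 of histone H3, a mark of silent chromatin.

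Polo-like kinases carry a serine/threonine kinase domain followed by polo boxes, which bind proteins that another kinase has already phosphorylated and so bring the enzyme to its place of work. In the worm PLK-1 drives entry into mitosis, growth of the centrosome, breakdown of the nuclear envelope and cell polarity in the zygote. PLK-2 acts with it in the embryo and is best known for pairing and synapsis of chromosomes in meiosis. PLK-3 is the least described of the family in the worm.

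Totals over genes ran from 23543963 to 25667207 counts in the libraries labelled met-2, 16929810 to 23924919 in set-25, 42943190 to 46833848 in the double mutant and 41033729 to 52683919 in N2. Depth overlapped between the double mutant and N2 and was lower in all libraries of both single mutant groups, where depth and genotype cannot be told apart; thinned to 16929810 counts per library, plk-3 kept its calls there. Levels are CPM, counts divided by library size and brought to a common scale with edgeR's TMM factors. With library totals in place of TMM the median log2 change of all genes against N2 was 0.32 and not 0.05 for the libraries labelled met-2, and 0.37 and not 0.07 for set-25. RNA of met-2 averaged 267 ± 49.6 CPM in the libraries labelled met-2, 52.4 ± 1.65 CPM in the double mutant and 322 ± 7.91 CPM in N2 (SD, n = 3 each). It was thus much less reduced under the label met-2 than in the double mutant, labelled with that same allele, and every direction given for the single mutant belongs to libraries so labelled. RNA of set-25 averaged 38.3 ± 1.52 CPM in set-25, 60.2 ± 2.42 CPM in the double mutant and 195 ± 20.3 CPM in N2. In the libraries labelled met-2 it averaged 100 ± 20.4 CPM, also below N2 (log2 -0.95, SE 0.20, edgeR adjusted p = 1.00e-04). Spearman correlations between libraries of a genotype were lowest in set-25, at 0.961 to 0.988. Where leaving out set-25 library c changed the call of a gene named here, both results are given. Counts within single lists use all set-25 libraries. Markers of early zygotic transcription summed to 312 to 404 CPM in the libraries labelled met-2, 403 to 535 in set-25, 610.1 to 691 in the double mutant and 770 to 918 in N2. Sperm and yolk markers summed to at most 2.43 CPM in any library.

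In the Ensembl annotation of WBcel235, plk-1 lies on chromosome III at 8101348 to 8104069 on the forward strand, with 6 exons that cover 2289 bases. The plk-2 gene lies on chromosome I at 2755540 to 2758204 on the reverse strand, with 6 exons and 2177 exon bases. The plk-3 gene lies on chromosome IV at 7470860 to 7473209 on the reverse strand, with 7 exons and 2051 exon bases. No other annotated gene overlaps any of the 3 spans. The sources used here name neither the build behind the deposited counts nor how multiply mapped reads were counted, which could move reads between related genes. Per kilobase of exon the order of the family was the same in every genotype. plk-1 stood at 181 CPM per exon kilobase in the libraries labelled met-2, 203 in set-25, 237 in the double mutant and 256 in N2. plk-2 stood at 19.0, 22.4, 27.96 and 26.8 CPM per exon kilobase in these groups, in the same order, and plk-3 at 5.18, 6.84, 0.536 and 13.7. The family's RNA was therefore mainly that of plk-1.

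The plk-3 RNA was lower in the mutant groups than in N2, and lowest in the double mutant. Its counts were 55, 44 and 38 in double mutant libraries a, b and c, against 1321, 1048 and 1062 in N2. In CPM these are 1.27, 1.05 and 0.978 in the double mutant, against 27.4, 28.1 and 29.0 in N2. The groups did not come near each other, and the double mutant kept 3.90% of the N2 mean, a log2 difference of -4.67 (SE 0.11). Among the 14260 genes 1 had a lower fitted difference, cwp-4, which had no count in the double mutant and only 0.154 CPM in N2. This drop is the pattern for which plk-3 was chosen and has no test here.

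The single mutant groups, whose levels did not choose plk-3, also had less plk-3 RNA than N2, whose libraries are shared by all these comparisons. Its level was 8.98, 10.8 and 12.1 CPM in labelled met-2 libraries a, b and c. The mean was 10.6 ± 1.56 CPM in these libraries and 28.2 ± 0.791 CPM in N2 (SD, n = 3 each). plk-3 therefore fell in the libraries labelled met-2, by a log2 value of -1.41 (SE 0.13), with adjusted p = 3.98e-05 by edgeR's quasi-likelihood test. In set-25 it was 15.4, 15.3 and 11.5 CPM, a mean of 14.03 ± 2.23 CPM. This was a log2 change of -1.0 (SE 0.14) against N2, with adjusted p = 6.58e-04 in the same edgeR test. No mutant library overlapped the N2 libraries. Both calls held under every alternative run, with log2 values of -1.52 to -1.14 for the libraries labelled met-2 and -1.08 to -0.69 for set-25; the weakest value for set-25 came without its library c.

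From low to high, the order of plk-3 levels was double mutant, labelled met-2, set-25 and N2. The middle pair overlapped: the libraries labelled met-2 were lower than set-25 by a log2 value of -0.40 (SE 0.19), with edgeR adjusted p = 0.0942, in a comparison in which 9.28% of all tested genes were lower. That difference passed the threshold with DESeq2 (-0.47, adjusted p = 0.0363), without labelled met-2 library c (-0.67, edgeR adjusted p = 0.0304) and without set-25 library c (-0.70, edgeR adjusted p = 0.00878). Double mutant values lay below those of both single mutant groups, by log2 differences of -3.27 (SE 0.16) from the libraries labelled met-2 and -3.67 (SE 0.18) from set-25. The log2 changes of the single mutant groups, which share the N2 libraries, sum to -2.41, where the double mutant stood at -4.67. Additivity was not tested, since the double mutant value is the one for which plk-3 was chosen. The libraries labelled met-2 also kept 83.1% of the N2 mean of met-2 RNA, against 16.3% in the double mutant. These embryos are bulk samples, in which fewer cells that make plk-3 RNA and less plk-3 RNA per cell cannot be told apart.

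**Figure D1:**
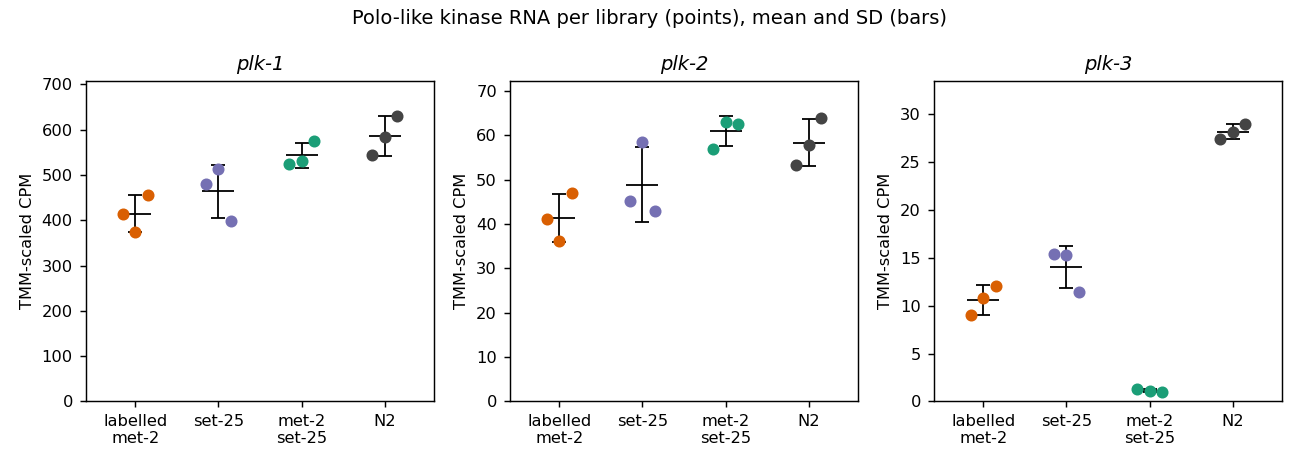
TMM-scaled CPM (linear axes from 0) of plk-1, plk-2 and plk-3 in each of 12 libraries, with 3 points for each genotype and bars for the mean and SD. For plk-3 the double mutant points lie between 0.978 and 1.27 CPM and the N2 points between 27.4 and 29.0 CPM, while the plk-1 and plk-2 points of these genotypes overlap.

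plk-1 and plk-2 did not show the double mutant's drop. The plk-1 RNA stood at 523, 530 and 576 CPM in double mutant libraries a, b and c, against 543, 583 and 630.1 CPM in N2. These groups overlapped, with a log2 difference of -0.11 (SE 0.08). The plk-2 RNA stood at 57.0, 63.0 and 62.6 CPM in the double mutant, against 53.3, 57.8 and 63.9 CPM in N2, a log2 difference of 0.06 (SE 0.09). These groups overlapped as well.

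In the libraries labelled met-2 both genes fell. Levels of plk-1 were 414, 375 and 456 CPM by library, all below N2. The log2 change was -0.50 (SE 0.10, edgeR adjusted p = 0.00266). plk-2 stood at 41.1, 36.1 and 46.9 CPM, again all below N2. This was a log2 change of -0.50 (SE 0.13, edgeR adjusted p = 0.00716). All 3 family members thus fell in these libraries, beside 29.6% of all tested genes. Changes of this size depended on the scaling: with library totals plk-1 was at -0.23 (edgeR adjusted p = 0.0952) and plk-2 at -0.22 (edgeR adjusted p = 0.151). Without labelled met-2 library b, plk-2 was at -0.38 (edgeR adjusted p = 0.0631).

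In set-25 the plk-1 levels were 481, 513 and 399 CPM, again all below N2. This was a log2 change of -0.34 (SE 0.12, edgeR adjusted p = 0.0337), and 21.6% of all tested genes fell in this comparison. This call was not stable. Without library c the log2 value was -0.047 (edgeR adjusted p = 0.798). The call was also lost without set-25 library b (-0.24), without N2 library b (-0.37), without N2 library c (-0.28), with library totals (-0.032) and with DESeq2 (-0.28). plk-2 stood at 45.1, 58.5 and 42.9 CPM in set-25, which overlaps N2. Its log2 value of -0.25 (SE 0.16) did not pass the test (edgeR adjusted p = 0.148), and the sign turned with library totals (0.044) and without library c (0.016). Between the single mutant groups, labelled met-2 against set-25, plk-1 differed by -0.16 (SE 0.14, edgeR adjusted p = 0.306) and plk-2 by -0.24 (SE 0.18, edgeR adjusted p = 0.200), and the libraries overlapped. Both differences passed the threshold without labelled met-2 library c, at -0.40 (edgeR adjusted p = 0.0485) and -0.50 (edgeR adjusted p = 0.0338). They also passed without set-25 library c, at -0.43 (edgeR adjusted p = 0.0178) for plk-1 and -0.49 (edgeR adjusted p = 0.0193) for plk-2.

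Ratios between family members within a library do not depend on how libraries are scaled to each other. Per exon kilobase, plk-2 RNA was 10.5 ± 0.332% of plk-1 RNA in the libraries labelled met-2, 11.1 ± 1.09% in set-25, 11.8 ± 0.620% in the double mutant and 10.5 ± 0.172% in N2 (SD, n = 3 each). For this ratio an exact two-sided permutation test gave p = 1.0 for the libraries labelled met-2 against N2 and p = 0.4 for set-25 against N2. The ratio of plk-3 to plk-1 was 2.86 ± 0.403% in the libraries labelled met-2, 3.37 ± 0.185% in set-25, 0.227 ± 0.0413% in the double mutant and 5.38 ± 0.249% in N2. Its libraries did not overlap between N2 and any mutant group. The exact permutation p was 0.1 for each single mutant group against N2, which is the smallest p that 3 against 3 libraries allow, and 0.225 adjusted over the 9 ratio comparisons made. Relative to plk-2, plk-3 stood at 27.4 ± 4.25% in the libraries labelled met-2, 30.7 ± 4.69% in set-25, 1.93 ± 0.385% in the double mutant and 51.4 ± 3.20% in N2. Measured against its own family, plk-3 thus stood lower in each mutant group than in N2 with no overlap of libraries, in a design too small for these tests to pass 0.05.

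**Figure D2:**
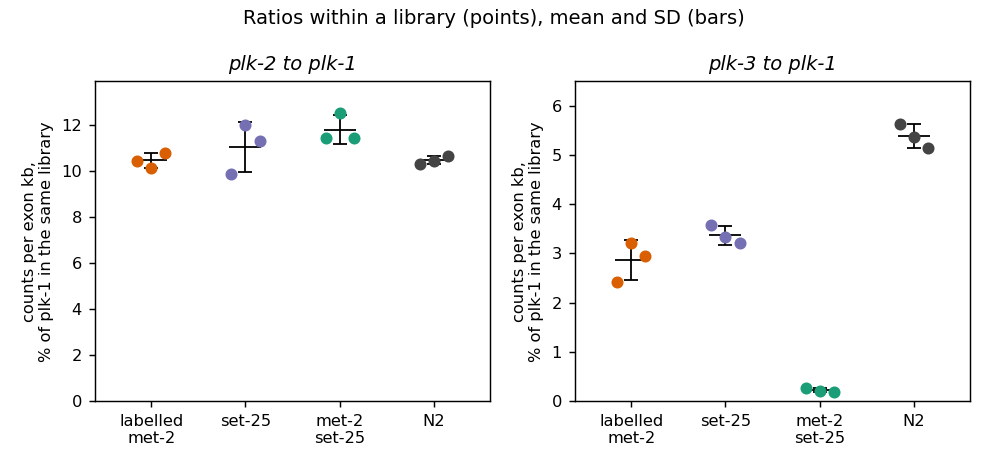
Ratios of counts per exon kilobase within a library, in percent of plk-1 (linear axes from 0), for plk-2 and for plk-3, with 3 points for each genotype and bars for the mean and SD. The ratio of plk-2 to plk-1 lies between 9.88 and 12.5% in all 12 libraries, and the means of plk-3 to plk-1 are 2.86% in the libraries labelled met-2, 3.37% in set-25, 0.227% in the double mutant and 5.38% in N2.

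Genes beside plk-3 were lower in the double mutant too. The 3 nearest protein-coding neighbours on each side were examined, a choice that did not use their values. F55G1.6 starts 307 bases from the end of plk-3 with the higher coordinate, on the other strand, and so lies head to head with it. It stood at 5.60, 5.21 and 5.15 CPM in double mutant libraries a, b and c, against 16.3, 15.7 and 17.7 CPM in N2. The groups did not overlap, and the log2 change was -1.64 (SE 0.06, edgeR adjusted p = 0.00205), in a comparison in which 3.34% of all tested genes fell. The next gene on that side is slc-25A18.2, named for the mitochondrial carrier family, whose far end overlaps pycr-4. It stood at 0.787, 1.05 and 0.721 CPM in the double mutant, against 2.97, 3.13 and 3.69 CPM in N2, a log2 change of -1.93 (SE 0.18, edgeR adjusted p = 0.00164).

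On the other side F55G1.7, separated from plk-3 by 1027 bases, stood at 0.185, 0.571 and 0.438 CPM in the double mutant, against 1.49, 1.63 and 1.42 CPM in N2. This was a log2 change of -1.92 (SE 0.41, edgeR adjusted p = 0.0159), which rests on 8 to 24 counts per double mutant library. It missed the threshold without double mutant library a (-1.55, edgeR adjusted p = 0.0639), without double mutant library c (-1.97, edgeR adjusted p = 0.0557) and without N2 library a (-1.93, edgeR adjusted p = 0.0568). Among the examined neighbours farther out, no fall passed the test. pycr-4, separated from plk-3 by 2953 bases and named for pyrroline-5-carboxylate reductase, was at -0.21 (SE 0.10, edgeR adjusted p = 0.422). On the F55G1.7 side F13B6.3 was at 0.85 (SE 0.42, edgeR adjusted p = 0.339), and F13B6.2 did not pass the filter on low counts. Of the 5 neighbours tested, 3 thus fell in the double mutant.

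Against the single mutant groups the same neighbours varied. F55G1.6 was lower in the double mutant than in the libraries labelled met-2 (-1.17, SE 0.07, edgeR adjusted p = 0.00124), in a comparison in which 30.8% of all tested genes were lower. It was also lower than in set-25 (-1.33, SE 0.31, edgeR adjusted p = 7.73e-04), where 17.7% were. In the single mutant groups F55G1.6 did not pass the test against N2, at -0.47 (SE 0.07, edgeR adjusted p = 0.0821) for labelled met-2 and -0.30 (SE 0.31, edgeR adjusted p = 0.279) for set-25. F55G1.7 was lower in the double mutant than in the libraries labelled met-2 (-1.28, SE 0.57, edgeR adjusted p = 0.0243), although its libraries overlapped, and did not pass against set-25 (-1.14, SE 0.45, edgeR adjusted p = 0.0569). slc-25A18.2 fell by 1.39 on the log2 scale in the libraries labelled met-2 (SE 0.16, edgeR adjusted p = 5.33e-04). In set-25 it was at -0.66 (SE 0.20, edgeR adjusted p = 0.0460), a call lost in several alternatives, among them without library c (-0.33, edgeR adjusted p = 0.356), without library b (-0.46, edgeR adjusted p = 0.25) and without any 1 N2 library. Its log2 difference between the double mutant and the libraries labelled met-2 was -0.54 (SE 0.20, edgeR adjusted p = 0.1), and the libraries overlapped. Against set-25 the double mutant was lower, at -1.27 (SE 0.23, edgeR adjusted p = 0.00268), with no overlap. F13B6.3 rose against N2 in labelled met-2 (3.83, SE 0.46, edgeR adjusted p = 1.25e-04). In set-25 it was at 1.99 (SE 0.66, edgeR adjusted p = 0.0182), a call lost without N2 library a or b. pycr-4 fell in labelled met-2 (-0.68, SE 0.12, edgeR adjusted p = 0.00542), a call lost with library totals and without library a. For pycr-4 the double mutant was above labelled met-2 (0.47, edgeR adjusted p = 0.0418). For F13B6.3 it was below (-2.98, edgeR adjusted p = 7.11e-04).

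A wider window, chosen after these values were seen, took all tested protein-coding genes whose start lies within 50 kb of the start of plk-3. Of 22 such genes 4 fell and 2 rose in the double mutant, beside 3.34% of all tested genes that fell and 8.7% that rose. The fourth gene that fell was the histone gene his-59 (-0.56, edgeR adjusted p = 0.0314), 15.04 kb away on the pycr-4 side. The genes that rose were valv-1 (3.17, edgeR adjusted p = 0.0157) and R05G6.9 (1.3, edgeR adjusted p = 0.0480), which averaged only 0.0614 and 0.150 CPM in N2. In the libraries labelled met-2, 8 of the 22 rose and 8 fell, beside 35.2% and 29.6% of all tested genes. In set-25 7 rose and 6 fell, beside 24.2% and 21.6%, so the shares in the window were near those of all genes. The sources used here do not say whether reads were counted by strand, so sense and antisense RNA at these genes cannot be separated.

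**Figure D3:**
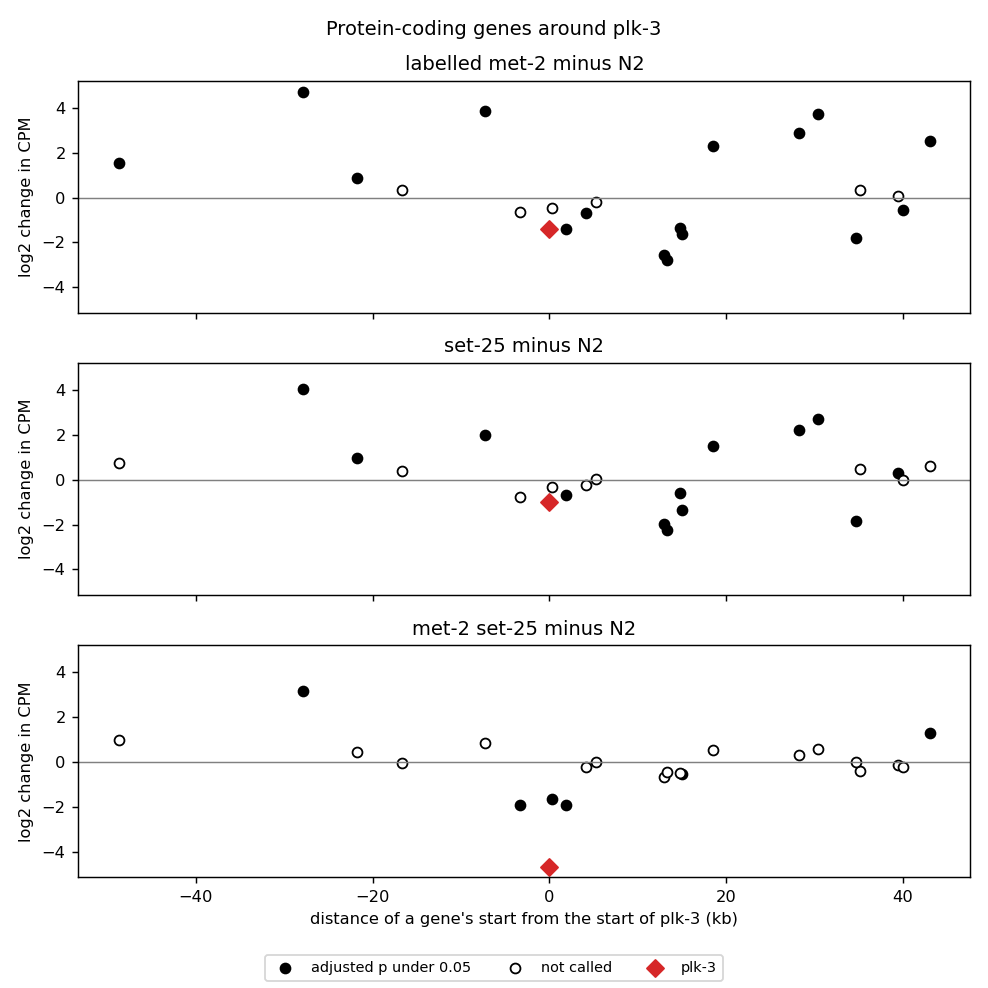
Log2 change in CPM of the libraries labelled met-2, of set-25 and of the double mutant, each minus N2, for the protein-coding genes around plk-3, by the distance of each gene's start from the start of plk-3 in kilobases. Filled points passed adjusted p under 0.05, open points did not, and the red diamond is plk-3, which is shown untested; in the double mutant the genes at -1.92, -1.64 and -1.93 sit next to plk-3, and the others lie between -0.68 and 3.17.

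The partners of the kinases were followed through 94 genes in 9 lists, all of which passed the filter. In the libraries labelled met-2, 64 of the 94 (68.1%) fell and none rose, beside 29.6% of all tested genes that fell and 35.2% that rose. No gene rose at an unadjusted p under 0.05 or with DESeq2 either. With library totals 44 fell and 6 rose. The median log2 change of the list was -0.60, beside 0.05 for all genes. In set-25, 47 of the 94 fell and 2 rose, beside 21.6% and 24.2% of all genes, and the list's median was -0.38 beside 0.07. With library totals these counts were 30 and 17, with DESeq2 6 rose, and without set-25 library c 31 fell and 9 rose. In the double mutant, 4 fell and 1 rose, beside 3.34% of all genes that fell and 8.7% that rose. These 5 calls, apc-2, sur-6, syp-3 and zim-1 lower and syp-1 higher, were all lost when any 1 double mutant or N2 library was left out. Fitted with only these 6 libraries, 34 of the 94 fell and 5 rose. The shares of all genes given here come from the fit of all 12 libraries. Shares under the alternatives are not given, so counts under an alternative cannot be set beside them.

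Genes that switch the kinases on were lower in the single mutant groups. PLK-1 is activated by the Aurora A kinase AIR-1 with its cofactor SPAT-1, the worm's Bora, which the CDK-1 kinase with its B cyclins phosphorylates. All 8 activation genes fell in the libraries labelled met-2 and 7 fell in set-25, beside 29.6% and 21.6% of all tested genes. air-1 stood at 128 ± 17.7 CPM in the libraries labelled met-2, 170 ± 28.9 CPM in set-25 and 304 ± 18.6 CPM in N2. The log2 changes were -1.25 (SE 0.12, edgeR adjusted p = 2.01e-05) and -0.84 (SE 0.15, edgeR adjusted p = 4.12e-04). spat-1 changed by -0.72 (SE 0.13) in the libraries labelled met-2 and -0.59 (SE 0.07) in set-25, where the call was lost without library c (-0.35, edgeR adjusted p = 0.0569). The cyclin B gene cyb-3 had the lowest value of this list in both, at -1.78 (SE 0.25) and -1.62 (SE 0.20). mbk-2, a kinase that primes proteins for polo-box binding, changed by -0.61 (SE 0.10) and -0.94 (SE 0.12).

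Among the genes that dock the kinases, mex-5 and mex-6 encode zinc finger proteins that bind PLK-1 and hold it in the anterior of the zygote. mex-5 stood at 109 ± 13.8 CPM in the libraries labelled met-2, 94.2 ± 25.5 CPM in set-25, 434 ± 45.3 CPM in the double mutant and 457 ± 97.2 CPM in N2. It thus fell in both single mutant groups (edgeR adjusted p = 1.08e-05 and 7.47e-06) while the double mutant overlapped N2 (-0.07, SE 0.19, edgeR adjusted p = 0.811). mex-6 changed by -1.60 (SE 0.16) in the libraries labelled met-2 and -1.44 (SE 0.20) in set-25. bub-1, which recruits PLK-1 to kinetochores, was not called, at 0.06 (SE 0.09, edgeR adjusted p = 0.655) and 0.22 (SE 0.10, edgeR adjusted p = 0.115); with library totals it rose in both, by 0.33 (edgeR adjusted p = 0.0127) and 0.52 (edgeR adjusted p = 0.00128), and without set-25 library c it rose in set-25, by 0.47 (edgeR adjusted p = 0.0110). Of the 7 docking genes, 4 fell in each single mutant group, beside 29.6% of all tested genes in labelled met-2 and 21.6% in set-25. In set-25 the call of npp-4 was lost without library c (-0.32, edgeR adjusted p = 0.0862).

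The remaining lists are given by their counts, which were not tested against each other and stand beside 29.6% of all tested genes that fell in the libraries labelled met-2 and 21.6% in set-25. All 7 opposing phosphatase genes fell in both single mutant groups. The PP2A catalytic gene let-92 was at -1.43 in both (SE 0.08 in the libraries labelled met-2 and 0.10 in set-25). In set-25 the call of sur-6 was lost without library c (-0.31, edgeR adjusted p = 0.0799). Of 14 centrosome genes 8 fell in the libraries labelled met-2, and 6 fell and 1 rose in set-25. There tac-1, a partner of the microtubule regulator ZYG-9, changed by -1.74 (SE 0.13) in labelled met-2 and -1.40 (SE 0.19) in set-25, and the γ-tubulin complex gene gip-2 rose by 0.47 (SE 0.09, edgeR adjusted p = 0.00300) in set-25. Of 13 genes of mitotic entry, the envelope and cytokinesis, 11 fell in labelled met-2 and 8 in set-25. The survivin-like bir-1 changed by -1.78 (SE 0.10) and -1.23 (SE 0.36). Without set-25 library c the set-25 calls of the centrosome genes sas-5 (-0.36) and zyg-9 (-0.20) were lost. So were those of lem-2 (-0.29) and lmn-1 (-0.080), counted with mitotic entry and the envelope.

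Kinetochore, anaphase, meiotic and polarity genes completed the lists. Of 12 kinetochore and checkpoint genes 5 fell in the libraries labelled met-2, and 2 (16.7%) fell and 1 rose in set-25, where 21.6% of all genes fell. The checkpoint gene mdf-2 changed by -1.26 (SE 0.06) and -0.85 (SE 0.24), and mdf-1 was the gene that rose in set-25, by 0.43 (SE 0.11). The call of bub-3, 1 of the 2 that fell in set-25, was lost without library c (-0.20, edgeR adjusted p = 0.262). Of 10 anaphase-promoting complex genes, 3 fell in each group, apc-10, fzy-1 and fzr-1, a share near the 29.6% of all genes in labelled met-2. In set-25 the calls of apc-10 and fzy-1 were lost in several alternatives, among them without library b (-0.26 and -0.29), without library c (-0.23 and -0.14) and without N2 library c (-0.58 and -0.42). In the libraries labelled met-2 that of fzr-1 (-0.43) was lost without library a (-0.24) or c (-0.42) and without N2 library a (-0.38) or b (-0.45). Of 15 genes of meiotic pairing and synapsis, where PLK-2 works, 12 fell in the libraries labelled met-2 and 5 in set-25. The synaptonemal complex gene syp-2 changed by -1.15 (SE 0.16) in labelled met-2, and the meiotic kinase gene chk-2 by -1.04 (SE 0.20) in set-25. In set-25 the calls of htp-2 (-0.28), him-8 (-0.19) and syp-2 (-0.26) were lost without library c. Of 8 polarity genes 6 and 5 fell, and par-6 changed by -1.56 (SE 0.14) and -1.37 (SE 0.15).

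**Figure D4:**
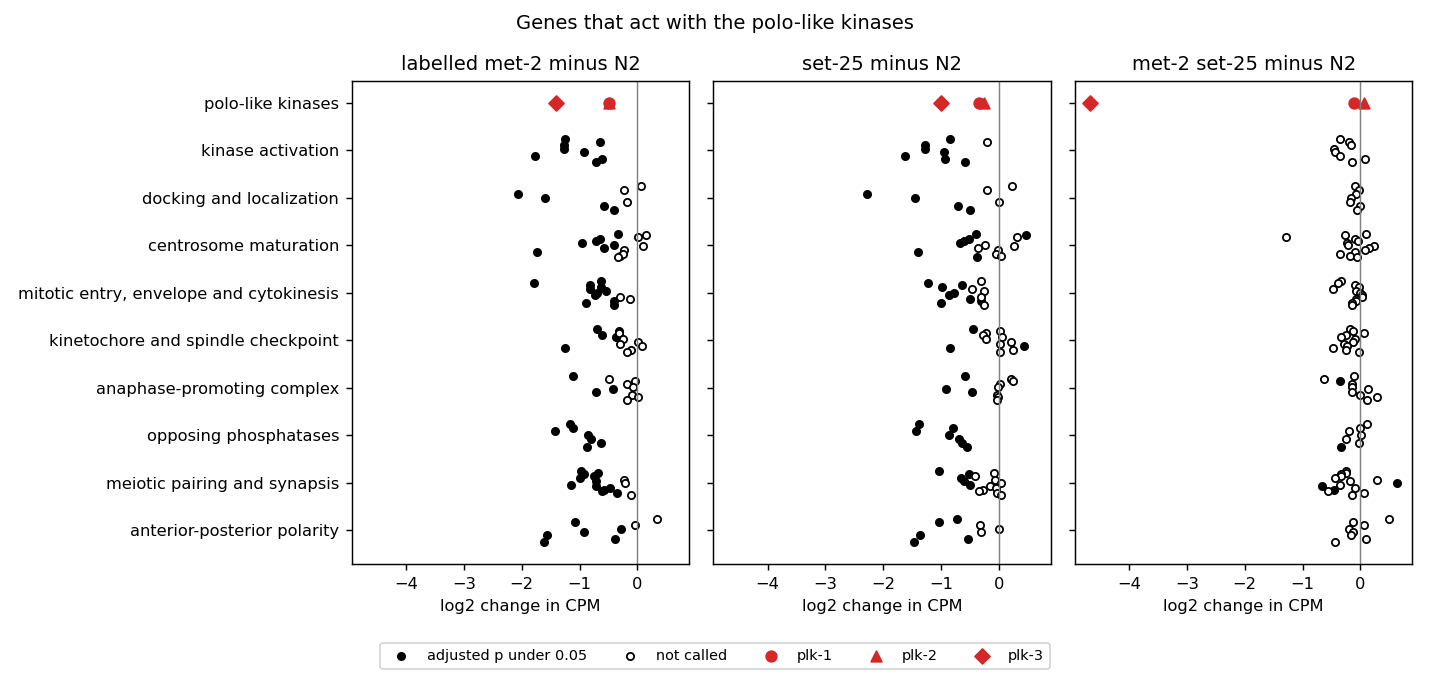
Log2 change in CPM against N2 of plk-1, plk-2 and plk-3 (red, top row, drawn without test marks) and of 94 genes that act with the polo-like kinases, by list, for the libraries labelled met-2, set-25 and the double mutant. Filled points passed adjusted p under 0.05; 64 of the 94 are filled in the libraries labelled met-2, and plk-3 stands alone at -4.67 in the double mutant.

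Markers of embryo age also differed between the groups. Of 16 maternal transcripts 14 fell in the libraries labelled met-2, 12 in set-25 and 2 in the double mutant. Their summed level was 1465 to 1731 CPM in labelled met-2, 1334 to 1827 CPM in set-25, 2769 to 3127 CPM in the double mutant and 3104 to 3961 CPM in N2. All 14 early zygotic transcripts fell in the libraries labelled met-2, 12 fell in set-25, and in the double mutant none did by edgeR or DESeq2, with 8 at an unadjusted p under 0.05. Of 6 tested cuticle collagens, which late embryos make, 6 rose in labelled met-2, 5 in set-25 and 4 in the double mutant. Collagens summed to 1296 to 2454 CPM in labelled met-2, 270 to 1440 CPM in set-25, 1160 to 1292 CPM in the double mutant and 324 to 591 CPM in N2. Of 8 muscle markers 7 rose and 1 fell in labelled met-2, 3 rose and 1 fell in set-25, and 4 rose in the double mutant. Of 8 gut markers 7 rose and 1 fell in labelled met-2, 4 rose and 1 fell in set-25, and 1 rose in the double mutant. Of 5 tested pharynx markers 3 rose and 1 fell in each single mutant group, and 1 rose in the double mutant. Beside all these counts, 35.2%, 24.2% and 8.7% of all tested genes rose in labelled met-2, set-25 and the double mutant. The shares that fell were 29.6%, 21.6% and 3.34% in the same order. Muscle markers summed to 790 to 1519 CPM in labelled met-2, 221 to 867 CPM in set-25, 1569 to 1607 CPM in the double mutant and 670 to 987 CPM in N2. Most of the N2 sum was act-4, the muscle marker that fell. It averaged 272 CPM in labelled met-2, 214 CPM in set-25, 990 CPM in the double mutant and 687 CPM in N2. Pharynx markers summed to 244 to 342 CPM in labelled met-2, 114 to 279 CPM in set-25, 349 to 376 CPM in the double mutant and 290 to 297 CPM in N2. Most of the N2 sum was pha-4, the pharynx marker that fell, with means of 285 CPM in N2 and 172 CPM in set-25. From N2 to set-25, means went from 0.353 to 14.6 CPM for myo-1, 0.933 to 12.1 CPM for myo-2 and 0.391 to 2.01 CPM for tnc-2. Within set-25 collagens stood at 270 CPM in library a, 870 CPM in b and 1440 CPM in c, where plk-1 stood at 481, 513 and 399 CPM, lowest in c and highest in b. The part of embryo age in the levels of plk-1, plk-2, plk-3 and their partners was not tested.

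The genes most like each member over the 12 libraries were ranked by Pearson's r of log2 CPM, as a description. For plk-1 the closest were F30F8.1 (r = 0.980), gei-14 (0.980), vet-6 (0.978), F46B6.5 (0.973) and lotr-1 (0.972). For plk-2 they were Y32B12B.2 (r = 0.970), pgl-3 (0.963), rsd-2 (0.956), edg-1 (0.955) and zwl-1 (0.955); pgl-3 encodes a P granule protein and zwl-1 a kinetochore protein. For plk-3 they were Y11D7A.7 (r = 0.975), Y92H12BL.5 (0.968), met-2 itself (0.966), eri-6 (0.962) and ztf-15 (0.961), all low in the double mutant. Y11D7A.7 had the same order of groups as plk-3, at 9.74 CPM in the libraries labelled met-2, 15.7 CPM in set-25, 2.72 CPM in the double mutant and 25.4 CPM in N2. Among the family members, plk-1 and plk-2 followed each other with r = 0.930 over the 12 libraries, while plk-3 gave -0.056 with plk-1 and -0.29 with plk-2. Spearman's rho was 0.86 between plk-1 and plk-2, 0.31 between plk-1 and plk-3, and 0.084 between plk-2 and plk-3. All values for plk-3 here include the double mutant libraries, whose low level is why it was chosen. The libraries fall into genotype groups, and correlation within groups was not separated from differences between genotypes.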

How the data were processed

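Ribosome-depleted total RNA of early embryos was sequenced, from 5 µg per sample per the labels' protocols. The authors deposited raw counts per gene in whole numbers; the deposited width column, in other units, is a length in bases and was not used. The sources used here name no aligner, counter, build or strand setting. Columns were assigned to genotypes by name; their letters pair with no replicate number.

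All 12 libraries entered 1 edgeR 4.0.16 quasi-likelihood fit (R 4.3.3; robust dispersion, TMM, filterByExpr with a minimum count of 10), two-sided, Benjamini-Hochberg over all tested genes, threshold 0.05. SE comes from log2 CPM with a prior count of 2. The script was tested on simulated data, for labelled met-2 against N2. There 196 of 13921 tested genes were changed, in both directions, whereas 35.2% rose and 29.6% fell in the real comparison. The script called 40.8% of the 2-fold and 77.6% of the 4-fold changes put in, and 1.69% of its calls were false. With so few genes changed, these rates may not hold for the real data. A gene that was not called may thus still differ. Of 27904 genes, 27166 (97.4%) matched Ensembl's WBcel235 gene models. DESeq2 1.42.0, library totals, RLE, no filter, only the 6 libraries compared, thinning to 16929810 counts and leaving out each library of a comparison were alternatives.

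Members and lists were chosen with earlier results of these data known. Named genes are the members, 3 protein-coding neighbours on each side, the 5 most alike genes per member, activation and docking genes, and part of the 2 highest and 2 lowest called genes per list. his-59, valv-1, R05G6.9, cwp-4 and the single markers act-4, pha-4, myo-1, myo-2 and tnc-2 were chosen after their values were seen. So were the single collagens sqt-3, col-74, col-14, col-65, col-165 and dpy-7. No protein or promoter sequence was used here. The repeat table was not used.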

Additional observations from a re-analysis of the deposited data

How the results depend on the processing

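No paired analysis was possible because the columns carry letters while the titles carry replicate numbers, and no source joins them; the replicate block was therefore not run. The falls of plk-3 in both single mutant groups were called under all 12 alternatives each, and its log2 difference in the double mutant, untested, ranged from -4.76 to -4.57. With library totals plk-1 and plk-2 in the libraries labelled met-2 (-0.23 and -0.22) and plk-1 in set-25 (-0.032) lost their calls, and the sign turned for plk-2 in set-25 (0.044) and for met-2 RNA in the libraries labelled met-2 (0.00507). Counts of pathway genes became 6 higher in labelled met-2, 17 higher and 30 lower in set-25 and 0 higher and 1 lower in the double mutant. The call of plk-1 in set-25 was also lost with DESeq2 (-0.28), RLE (-0.28), only the 6 libraries (-0.33) and thinning (-0.30), while DESeq2 called plk-3 between the single mutant groups (-0.47). DESeq2 gave 6 higher in set-25 and 2 higher in the double mutant; RLE gave 0 higher and 0 lower in the double mutant; no filter and thinning gave 0 lower there, thinning 4 higher in set-25, and only the 6 libraries 5 higher and 34 lower. With no filter the sign of met-2 RNA in set-25 turned (-0.0113), and without labelled met-2 library c that of bub-1 in that group (-0.021, within a left-out range of -0.021 to 0.15). Shares of all genes under these alternatives are not given, so the altered counts stand beside no background. The cause of these changes was not tested.

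With 1 library left out, plk-1 ranged from -0.58 to -0.40 in labelled met-2, -0.39 to -0.047 in set-25 and -0.43 to -0.14 between these groups. plk-2 ranged from -0.60 to -0.38, -0.32 to 0.016 and -0.50 to -0.21, and plk-3 from -1.52 to -1.26, -1.08 to -0.69 and -0.70 to -0.34. Pathway counts ranged from 0 to 1 higher and 47 to 68 lower in labelled met-2, 2 to 9 higher and 31 to 58 lower in set-25, and were 0 higher and 0 lower in the double mutant. Depth limits the genes with few counts, such as F55G1.7 with 8 to 24 counts per double mutant library, and more so F13B6.3, F13B6.2, cwp-4 and valv-1.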

Other observations

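Among the 5 tested neighbours of plk-1 and the 6 of plk-2, log2 differences between the double mutant and N2 ran from -0.63 for C14B9.3 to 1.16 for K06H7.1, and the smallest edgeR adjusted p was 0.143, for Y71F9B.2. K06H7.1 lies on the same strand as plk-1 and ends 621 bases before it, with 0.360 ± 0.166 CPM in the double mutant and 0.161 ± 0.0968 CPM in N2 (SD, n = 3 each). Y71F9B.9, separated from plk-2 by 818 bases on the same strand, rose in both single mutant groups. It stood at 18.8 ± 3.21 CPM in the libraries labelled met-2, 23.5 ± 11.7 CPM in set-25 and 8.79 ± 1.82 CPM in N2. These are log2 changes of 1.09 (SE 0.24, edgeR adjusted p = 0.00631) and 1.41 (SE 0.44, edgeR adjusted p = 0.00256). yop-1, farther out beside plk-2 and named for a yeast protein that shapes the endoplasmic reticulum, changed under the label met-2 by -2.63 (SE 0.20, edgeR adjusted p = 7.11e-07) and by -3.12 (SE 0.21, edgeR adjusted p = 3.67e-07) in set-25, on the log2 scale. In the double mutant it was at -0.32 (SE 0.20, edgeR adjusted p = 0.147).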
